A study of Rattus norvegicus with 16 samples.

Results

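The myogenic regulatory factors and their associated satellite cell genes were followed over 60 days in the supraspinatus, a muscle of the rotator cuff. The set was 6 genes chosen by name, Pax7, Myf5, Myod1, Myog, Myf6 and Cdh15, out of 17147 in the table, and all 6 passed the filter on low counts, as did 11658 genes in all. Messenger RNA was measured in 16 libraries of supraspinatus muscle from Sprague Dawley rats, 4 in each of 4 groups. The 0 day rats were controls that had no operation. The groups at 10, 30 and 60 days had undergone, on both sides, a full-thickness supraspinatus tear plus suprascapular neurectomy, which interrupts the nerve that supplies the muscle. Every operated library carries both injuries, so tear, denervation and surgery itself cannot be told apart. Whether any libraries came from the same rat was not stated, and neither were age and sex, so the p-values measure the spread between these libraries.

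Myf5, MyoD (Myod1), myogenin (Myog) and MRF4 (Myf6) are basic helix-loop-helix transcription factors that pair with E proteins and bind the E-box, and together they direct the muscle lineage. Pax7 marks satellite cells, the stem cells that lie against the muscle fibre. When these are activated, Myf5 and MyoD mark the dividing myoblasts, myogenin accompanies exit from the cell cycle and fusion, and MRF4 is the factor most expressed in mature fibres. Myogenin is also made by the nuclei of adult fibres after denervation, where it drives acetylcholine receptor subunits. Cdh15 encodes M-cadherin, an adhesion molecule of satellite cells and myoblasts. In RNA of whole muscle, fewer cells of a type and less RNA per cell cannot be told apart, and neither can fibre nuclei and satellite cells as the source of a transcript.

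The 4 myogenic regulatory factors were higher at 10 and 30 days than at 0 days, whereas Cdh15 was lower and Pax7 did not pass the test. Myog rose most, 20.4-fold at 10 days, and Myf5, Myod1 and Myf6 rose by 2.14- to 3.41-fold. At 60 days Myod1 and Myf6 did not pass the test, Myf5 and Myog remained above the 0 day level, and Cdh15 remained below that level. Called means an adjusted p under 0.05 in edgeR's quasi-likelihood test over all genes. At 10 days 5 of the 6 genes were called, 4 higher and 1 lower, where 62.7% of all tested genes were called (33.3% higher and 29.4% lower). At 30 days the count was again 5, 4 higher and 1 lower, against 64.6% of all genes (33.7% and 30.9%). At 60 days 3 genes were called, 2 higher and 1 lower, against 59.0% of all genes (29.9% and 29.1%). With RLE factors the count at 30 days was 4 higher and 2 lower, and with library totals the count at 60 days was 3 higher and 0 lower. In TMM-scaled levels the injured and control libraries did not overlap in 5 of the 6 genes at 10 days, where 59.0% of all genes showed no overlap. The same held in 5 at 30 days (60.2% of all genes) and in 3 at 60 days (50.0% of all genes). In the joint test of the 4 groups 5 of the 6 were called, all but Pax7 (adjusted p = 0.0720), against 84.7% of all genes. With so many genes called throughout the table, these counts do not set the 6 genes apart, and the sizes and time courses below carry the description. The median log2 fold change of the 6 genes was 1.42 at 10 days, 1.38 at 30 days and 0.19 at 60 days, against 0.06, 0.05 and 0.04 over all tested genes. The 3 comparisons with 0 days share their control libraries.

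**Figure D1:**
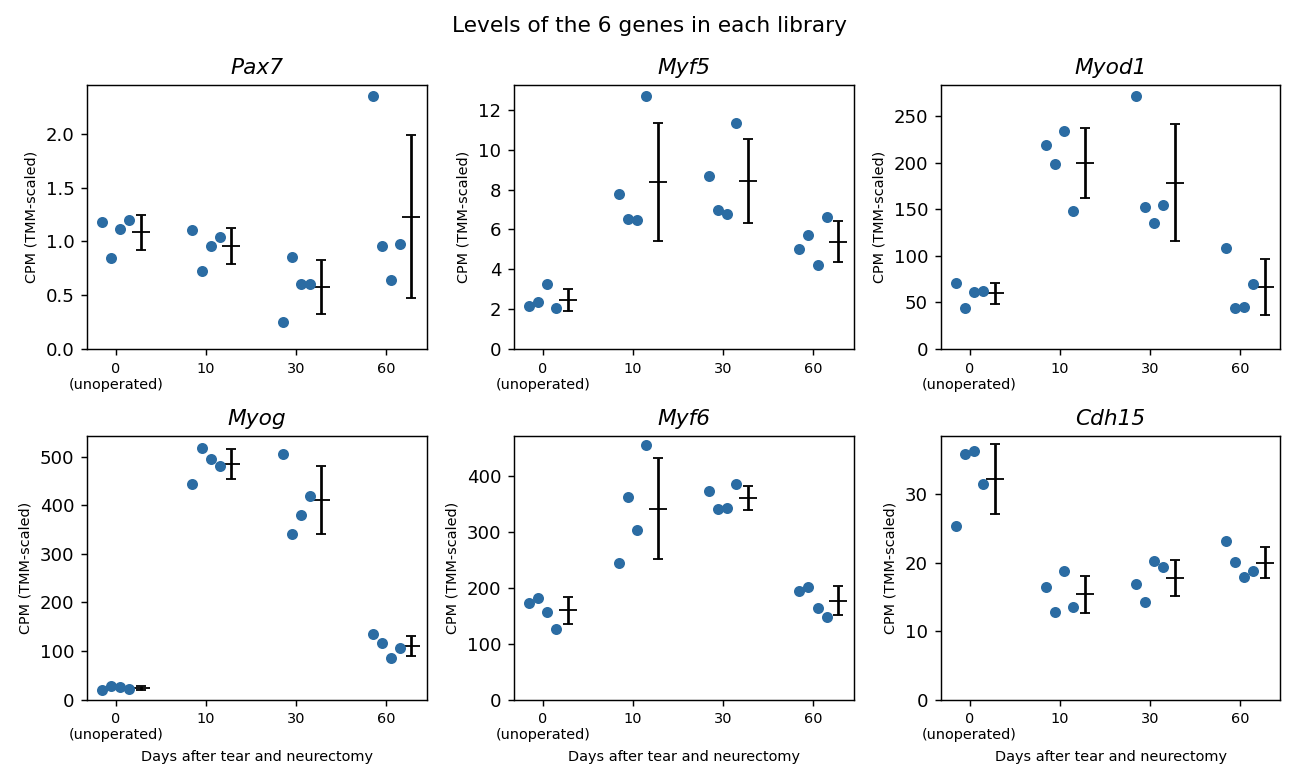
Level of each of the 6 genes (CPM, fragments per 1 M fragments after TMM scaling) at 0, 10, 30 and 60 days, 1 point per library and a line at the mean of 4. The Myog points at 10 days lie between 444 and 518 CPM against 19.6 to 28.3 at 0 days, and the Cdh15 points at all injured times lie below those at 0 days.

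The region upstream of the start site is shown for the 3 genes whose levels moved with the injury and whose window holds a motif of interest, Myog and Myf6, which rose, and Cdh15, which fell. These are the 250 bases before the RefSeq transcript start in the rat assembly GRCr8, 5' to 3' on the gene's strand. Capitals mark the E-box, CANNTG, and the core of the MEF2 site, TA followed by 4 bases that are A or T and then TA. Myog is chr13:48297226-48297475 on the plus strand, Myf6 is chr7:44701314-44701563 on the minus strand and Cdh15 is chr19:67814407-67814656 on the plus strand.
Myog: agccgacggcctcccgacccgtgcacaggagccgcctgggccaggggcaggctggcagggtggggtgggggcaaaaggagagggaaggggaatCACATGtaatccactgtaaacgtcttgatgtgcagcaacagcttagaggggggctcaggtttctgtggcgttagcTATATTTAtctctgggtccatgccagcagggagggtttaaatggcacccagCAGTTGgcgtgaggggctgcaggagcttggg
Myf6: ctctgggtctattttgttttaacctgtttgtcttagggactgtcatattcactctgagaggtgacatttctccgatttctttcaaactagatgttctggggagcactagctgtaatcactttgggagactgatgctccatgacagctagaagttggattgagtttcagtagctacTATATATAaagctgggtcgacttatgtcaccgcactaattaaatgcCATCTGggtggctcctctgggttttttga
Cdh15: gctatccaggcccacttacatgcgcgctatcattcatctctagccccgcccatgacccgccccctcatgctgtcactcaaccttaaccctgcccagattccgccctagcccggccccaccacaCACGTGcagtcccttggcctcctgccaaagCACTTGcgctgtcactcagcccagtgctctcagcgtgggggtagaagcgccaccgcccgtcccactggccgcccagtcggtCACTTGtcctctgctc
The Myog window held 2 E-boxes, CACATG at 157 to 152 bases before the start and CAGTTG at 31 to 26, and a MEF2 core, TATATTTA, at 82 to 75. The Myf6 window had the E-box CATCTG at 29 to 24 bases before the start and the MEF2 core TATATATA at 75 to 68. The Cdh15 window had 3 E-boxes, CACGTG at 127 to 122 and CACTTG at 97 to 92 and at 16 to 11, and no MEF2 core. Neither motif was matched in the Pax7 or the Myf5 window, and none of the 5 windows had the E-box CAGCTG. Among 33469 such windows of the RefSeq set, 65.5% had at least 1 CANNTG, 12.0% had CAGCTG and 9.10% had the MEF2 core, both strands being covered because each motif reads the same on either. A match of letters describes the sequence and not a bound site, and the Myod1 window is not in the set. Myf5 and Myf6 are neighbours, with 0 annotated genes between them.

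Myog, which encodes the factor that drives terminal differentiation and the denervation response of fibres, was at 19.6, 28.3, 25.5 and 21.6 CPM in replicates 1 to 4 at 0 days. At 10 days its level was 444, 518, 496 and 481 CPM, and at 30 days it was 505, 340, 379 and 420. At 60 days it was 135, 116, 85.7 and 107 CPM. No injured library overlapped a control library at any time, and the 60 day libraries lay between the controls and the earlier injured groups. The mean level went from 23.8 ± 3.91 CPM (SD, n = 4) in the controls to 485 ± 31.3 after 10 days, 411 ± 70.4 after 30 and 111 ± 20.4 after 60. Against 0 days the log2 fold change was 4.35 ± 0.16 (SE) at 10 days (adjusted p = 1.83e-11), 4.11 ± 0.16 at 30 days (adjusted p = 2.77e-11) and 2.22 ± 0.15 at 60 days (adjusted p = 1.33e-08), which are 20.4-, 17.3- and 4.66-fold. By size Myog ranked 113 among the 11658 tested genes at 10 days, 100 at 30 days and 262 at 60 days.

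Myod1, the factor of activated satellite cells and myoblasts, was at 71.1, 44.1, 61.7 and 62.5 CPM at 0 days and at 219, 198, 235 and 148 CPM at 10 days. At 30 days it was 272, 152, 135 and 155 CPM, and at 60 days 108, 43.6, 45.0 and 69.4. Each library at 10 and 30 days was above each control, while the 60 day libraries spread on both sides of the controls. Its log2 fold change was 1.74 ± 0.29 at 10 days (adjusted p = 7.01e-05) and 1.58 ± 0.28 at 30 days (adjusted p = 0.000182). At 60 days it was 0.16 ± 0.28 (adjusted p = 0.645), and without replicate 1 of that group it was -0.18.

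Myf5, the earliest of the factors to appear in muscle development, was at 2.14, 2.35, 3.26 and 2.06 CPM at 0 days. It was at 7.78, 6.50, 6.49 and 12.7 CPM at 10 days, 8.68, 6.98, 6.76 and 11.3 at 30 days and 5.03, 5.72, 4.21 and 6.62 at 60 days. All injured libraries lay above all control libraries. The log2 fold change was 1.77 ± 0.25 at 10 days (adjusted p = 1.03e-05), 1.77 ± 0.25 at 30 days (adjusted p = 1.17e-05) and 1.14 ± 0.25 at 60 days (adjusted p = 0.00114). On the linear scale the rise was 3.41-fold at 10 days and 2.20-fold at 60 days.

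Myf6, the factor of mature fibres, had levels of 172, 182, 158 and 126 CPM at 0 days. They were 244, 362, 304 and 456 CPM at 10 days, 374, 342, 343 and 385 at 30 days and 195, 202, 165 and 147 at 60 days. The groups at 10 and 30 days did not overlap the controls, and the 60 day group did. Its log2 fold change was 1.10 ± 0.16 at 10 days (adjusted p = 1.93e-05), 1.18 ± 0.16 at 30 days (adjusted p = 1.11e-05) and 0.15 ± 0.16 at 60 days (adjusted p = 0.433). Scaled by library totals in place of TMM factors, the 60 day difference was 0.55 and was called (adjusted p = 0.00577).

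Cdh15, the M-cadherin gene, was at 25.4, 35.9, 36.2 and 31.5 CPM at 0 days. It was at 16.4, 12.8, 18.7 and 13.6 CPM at 10 days, 16.9, 14.3, 20.2 and 19.3 at 30 days and 23.1, 20.1, 17.9 and 18.8 at 60 days. In these TMM-scaled values all injured libraries were below all controls, the direction opposite to that of the 4 factors. As shares of library totals the groups overlapped at each injured time. Control replicate 1 had 451 of 23.0 M fragments. Larger shares were 569 of 24.6 M (replicate 3, 10 days), 480 of 22.9 M (replicate 4, 30 days) and 501 of 22.4 M (replicate 1, 60 days). Its log2 fold change was -1.07 ± 0.14 at 10 days (adjusted p = 6.48e-06), -0.87 ± 0.14 at 30 days (adjusted p = 5.88e-05) and -0.69 ± 0.14 at 60 days (adjusted p = 0.000655). Scaled by library totals the size was smaller, -0.41, -0.38 and -0.28, and the 60 day difference no longer passed the test (adjusted p = 0.0870).

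Pax7, the satellite cell transcription factor, was the least covered of the 6, with 7 to 51 fragments per library. It was at 1.18, 0.844, 1.12 and 1.20 CPM at 0 days and at 1.10, 0.723, 0.955 and 1.04 at 10 days. It was at 0.248, 0.855, 0.600 and 0.603 CPM at 30 days and at 2.35, 0.953, 0.643 and 0.978 at 60 days. The 10 and 60 day groups overlapped the controls, and at 30 days 3 libraries lay below them. Counting error alone gave replicate 1 at 30 days a 95% interval of 0.0997 to 0.511 CPM (exact Poisson) and replicate 1 at 60 days one of 1.75 to 3.09. The log2 fold change was -0.17 ± 0.36 at 10 days (adjusted p = 0.701), -0.87 ± 0.38 at 30 days (adjusted p = 0.0555) and 0.21 ± 0.37 at 60 days (adjusted p = 0.632). The 30 day difference passed in 7 of 24 alternative analyses, among them DESeq2 (-0.91, adjusted p = 0.0371). Scaled by library totals in the edgeR test it was smaller and did not pass (-0.39, adjusted p = 0.348).

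Ordered by mean level, the groups of Myog ran 10, 30, 60 and 0 days, and only 10 and 30 days were neighbours that did not differ beyond their spread. Myod1 averaged 199.9 ± 37.7 CPM (SD, n = 4) at 10 days, 179 ± 62.9 at 30, 66.6 ± 30.2 at 60 and 59.8 ± 11.3 in the controls, and the test separated neither the first pair nor the last. Myf6 averaged 361 ± 21.9 CPM at 30 days, 342 ± 90.3 at 10, 177 ± 25.5 at 60 and 159.5 ± 24.4 in the controls, with the same break between the early times and the rest. Myf5 averaged 8.44 ± 2.11 CPM at 30 days, 8.37 ± 2.96 at 10, 5.39 ± 1.03 at 60 and 2.45 ± 0.551 in the controls, which stood apart from every injured time. Cdh15 was highest in the controls, 32.2 ± 5.08 CPM, and then ran 20.0 ± 2.25 at 60 days, 17.7 ± 2.64 at 30 and 15.4 ± 2.74 at 10, where adjacent injured times did not differ. Pax7 averaged 1.23 ± 0.762 CPM at 60 days, 1.08 ± 0.164 in the controls, 0.956 ± 0.167 at 10 days and 0.576 ± 0.249 at 30 days, and no neighbours in that order differed. Within the 60 day group, replicate 1 was the highest library for Pax7, Myod1, Myog and Cdh15, and not for Myf5 or Myf6.

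**Figure D2:**
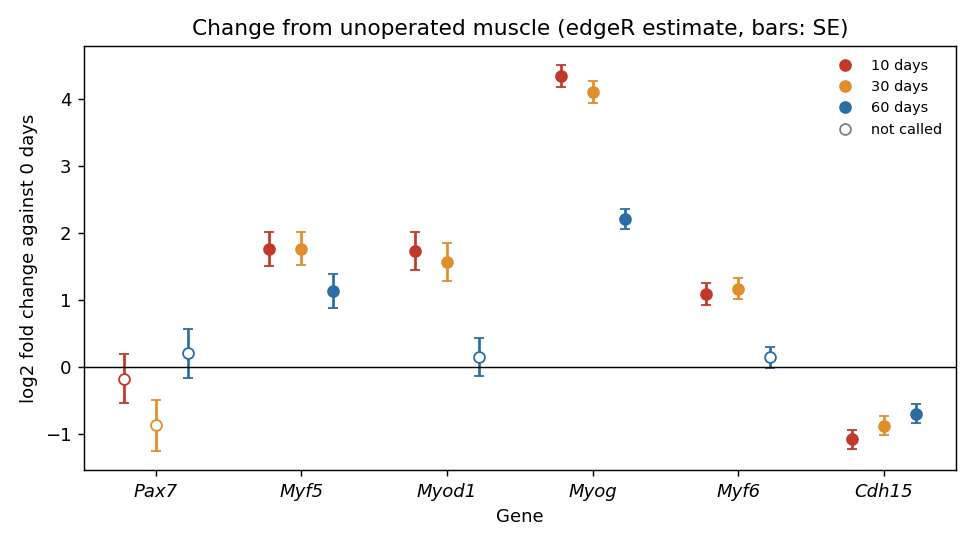
Log2 fold change of each gene against 0 days at 10, 30 and 60 days, with bars of 1 SE from the model. Myog stands at 4.35, 4.11 and 2.22, Cdh15 is below 0 at every time, and Pax7 has the widest bars.

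The injured groups were then compared with each other, which asks how the genes moved between 10, 30 and 60 days. Between 10 and 30 days none of the 6 genes was called (edgeR, 0 of 6, and 0 by DESeq2), 0 had an unadjusted p under 0.05, and 47.3% of all tested genes were called (23.0% higher and 24.3% lower). All 6 had overlapping groups, where 43.8% of all genes had none. Myog was the closest to a call among the 4 factors, at -0.24 ± 0.14 (adjusted p = 0.174), and scaling by library totals gave -0.39 (adjusted p = 0.0389). From 30 to 60 days 4 genes were called, 1 higher and 3 lower, where 22.6% of all genes were called (10.3% higher and 12.4% lower). Myod1 fell by 1.42 ± 0.28 on the log2 scale (adjusted p = 0.00253), Myog by 1.89 ± 0.15 (adjusted p = 6.69e-07) and Myf6 by 1.03 ± 0.16 (adjusted p = 0.000424). In each of the 3 genes all 60 day libraries were below all 30 day libraries. Myf5 showed the same separation, which made 4 of the 6 genes without overlap against 20.1% of all genes, and its difference of -0.64 ± 0.23 missed the threshold (adjusted p = 0.0587).

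Pax7 was the gene called higher from 30 to 60 days, by 1.08 ± 0.38 (adjusted p = 0.0492), with overlapping groups. The p-value lay at the threshold, and the call was lost in 17 of 24 alternatives, in most of them with the difference little changed. The difference itself shrank without replicate 1 at 60 days (0.55, adjusted p = 0.245) and without replicate 1 at 30 days (0.83, adjusted p = 0.133). With the replicate number as a block it was 1.00 (adjusted p = 0.0952). The remaining gene, Cdh15, was 0.18 ± 0.14 higher (adjusted p = 0.394).

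From 10 to 60 days 5 genes were called, 1 higher and 4 lower, where 61.1% of all genes were called (29.1% higher and 31.9% lower), and 3 had groups without overlap, against 51.2% of all genes. Myog fell by 2.13 ± 0.15 (adjusted p = 1.83e-08), Myod1 by 1.58 ± 0.28 (adjusted p = 0.000185), Myf6 by 0.95 ± 0.16 (adjusted p = 9.60e-05) and Myf5 by 0.63 ± 0.23 (adjusted p = 0.0267). Cdh15 rose by 0.38 ± 0.14 (adjusted p = 0.0305). The Myf5 difference shrank without replicate 4 at 10 days (-0.36, adjusted p = 0.145). Its call was also lost, with a size closer to the full value, without replicate 1 (-0.60) or 3 (-0.53) at 60 days and with upper-quartile factors (-0.54). The Cdh15 difference shrank with library totals (0.13, adjusted p = 0.463). Its call was also lost without replicate 2 (0.30) or 4 (0.32) at 10 days and without replicate 1 (0.30) or 2 (0.38) at 60 days. The count of called genes was 3 without replicate 4 at 10 days or without replicate 1 at 60 days.

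Ratios of fragment counts within a library do not depend on how libraries are scaled, and they show how the balance among the genes shifted. They are given as a description, and since fragments also follow transcript length, only their change over time is read. Myog to Myod1 was 0.419 on average at 0 days (range 0.276 to 0.642), 2.50 at 10 days (2.03 to 3.25), 2.40 at 30 days (1.86 to 2.80) and 1.84 at 60 days (1.25 to 2.66). Myog to Myf6 was 0.151 at 0 days (0.114 to 0.171), 1.48 at 10 days (1.05 to 1.82), 1.14 at 30 days (0.995 to 1.35) and 0.628 at 60 days (0.521 to 0.724). In both ratios every injured library was above every control. Myog to Cdh15, the rising gene against the falling one, went from 0.738 (0.685 to 0.789) to 32.4 (26.5 to 40.6), 23.5 (18.8 to 29.8) and 5.51 (4.78 to 5.84). Myf6 to Myod1 averaged 2.78, 1.83, 2.16 and 3.05 at the 4 times, with overlapping groups.

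**Figure D3:**
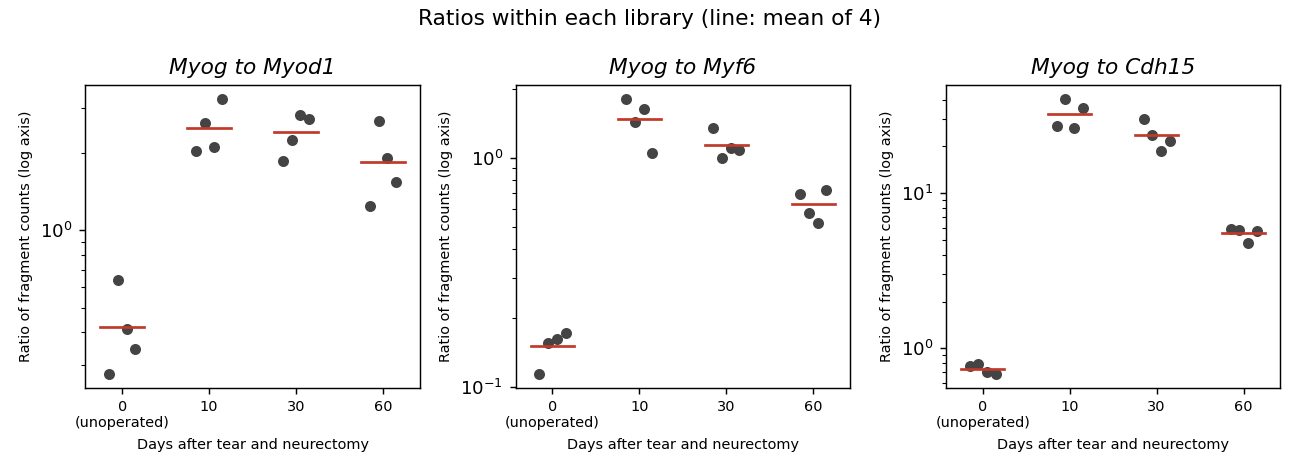
Ratio of fragment counts of Myog to Myod1, Myf6 and Cdh15 (log axes), 1 point per library and a line at the mean of 4, at 0, 10, 30 and 60 days. Every injured library lies above every control in all 3 panels, and Myog to Cdh15 is 0.738 on average at 0 days and 32.4 at 10 days.

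Genes with the most similar course were taken by Pearson correlation of log2 CPM over the 16 libraries, which share the 4 groups. For Myog these were Eef1a1, an elongation factor of translation, Gadd45a and Adam19, each at r = 0.99. Eef1a1 was at 659 ± 36.4 CPM at 0 days and 5167 ± 558 at 10 days. For Myod1 they were Sms (0.96), Lrtm2 (0.95) and Irx3 (0.94), for Myf5 Lmo2 (0.95), Rbbp4 and Tnip2 (0.94 each), and for Myf6 Rexo2, Mettl6 and Ccdc64b (0.94 each). For Cdh15 the closest were Socs2 (0.94), Pwwp2b and Spry4 (0.93 each). No gene was as close to Pax7, whose best were Slc35d1 and Insig1 (0.79 each) and Limch1 (0.78).

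Of the 10 genes listed as myogenin targets in denervated fibres, 10 were higher at 10 days, with a median log2 fold change of 4.97 against 0.06 over all genes. At 30 days 8 were higher and 1 lower (median 4.11), and at 60 days 7 higher and 1 lower (median 1.24). Over all tested genes 33.3%, 33.7% and 29.9% were called higher and 29.4%, 30.9% and 29.1% lower at the 3 times. The list was chosen with earlier results of these data known, so its counts are a description only. Whether myogenin acts on the listed genes was not tested. Chrng, the fetal acetylcholine receptor subunit, rose by 7.11 ± 0.59 at 10 days (log2), from 0.931 ± 0.0318 to 129 ± 21.9 CPM, and Chrna1, the alpha subunit, by 6.01 ± 0.39. Among the atrophy ubiquitin ligases of the list, Fbxo32 was 1.79 higher at 10 days and then 1.48 and 1.51 lower than at 0 days at 30 and 60 days (log2). Trim63, chosen after its values were seen, was 0.84 higher at 10 days (adjusted p = 0.00580) and did not pass at 30 and 60 days (0.28 and 0.25). Against 10 days, 10 of 10 listed genes were lower at 60 days, with a median of -3.36, where 31.9% of all genes were called lower.

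Of the myoblast fusion and early differentiation list 17 of 18 genes were tested, and 10 were higher and 5 lower at 10 days (median 1.81), 11 and 5 at 30 days (2.46), and 10 and 2 at 60 days (1.18). With library totals fewer were lower, the split being 12 and 1, 11 and 2, and 13 and 1. Tmem8c, the older symbol of the fusion protein myomaker, was at 0.644 ± 0.191, 15.7 ± 3.84, 45.0 ± 24.4 and 1.77 ± 0.697 CPM at the 4 times. It rose by 4.58 ± 0.44 at 10 days (adjusted p = 2.94e-07), 6.09 ± 0.45 at 30 days (adjusted p = 2.07e-08) and 1.45 ± 0.53 at 60 days (adjusted p = 0.0283). Cdkn1a, the p21 cell cycle inhibitor, was 5.18, 5.18 and 4.72 higher, and Ncam1, a marker of denervated fibres and satellite cells, 4.91, 3.67 and 1.74 higher. Actc1, the cardiac actin of developing muscle, was 3.58 and 4.43 higher at 10 and 30 days, and its 0.91 at 60 days did not pass (adjusted p = 0.0693).

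Of 14 tested bHLH partners and inhibitors, 7 were higher and 2 lower at 10 days, 9 and 3 at 30 days, and 10 and 1 at 60 days, with medians of 0.53, 0.75 and 0.91. With library totals the split was 10 and 0, 11 and 1, and 11 and 1. With TMM factors, 33.3%, 33.7% and 29.9% of all tested genes were called higher and 29.4%, 30.9% and 29.1% lower at the 3 times. The Id proteins, which bind E proteins and withhold them from the myogenic factors, split: Id2 (1.05, 1.33 and 1.43), Id3 (0.59, 0.56 and 0.74) and Id4 (1.44, 1.33 and 1.84) rose at all 3 times. With TMM factors Id1 was lower at 10 and 30 days (-0.99 and -0.81) and did not pass at 60 days (-0.22). Under library totals 0 genes of the list were called lower at 10 days, so that Id1 call was lost. Its sign at 60 days turned (0.19), so the split of the Id genes depends on the scaling. The repressor gene Bhlhe40 was lower at 30 and 60 days (-1.33 and -1.44), and its -0.44 at 10 days (adjusted p = 0.0342) became 0.22 with library totals. Twist1, an inhibitor of the myogenic factors, was 1.53 and 1.33 higher at 30 and 60 days, and its 0.98 at 10 days did not pass. The E protein gene Tcf12 was higher at 10 days (0.91, adjusted p = 6.87e-05) and did not pass later. Another E protein gene, Tcf3, was called lower at 30 days (-0.34, adjusted p = 0.00382), a sign that turned (0.15) when library totals were used.

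The MEF2 and HDAC regulators of myogenin gave 7 tested genes of 10, of which 3 were higher and 2 lower at 10 days and 1 higher and 3 lower at 30 and at 60 days. Their median was -0.33 at 10 days and -0.32 at 30 days, and both turned positive (0.32 and 0.17) with library totals. The split of calls also depended on the scaling: at 60 days library totals gave 3 higher and 1 lower and upper-quartile factors 2 and 2, and at 10 days library totals gave 4 and 1 and RLE factors 3 and 4. Over all tested genes, TMM factors gave 33.3%, 33.7% and 29.9% called higher and 29.4%, 30.9% and 29.1% lower at the 3 times. Hdac4, a deacetylase of the denervation response, rose by 2.98 ± 0.20 at 10 days (adjusted p = 5.11e-09), from 12.3 to 97.5 CPM, and by 1.19 ± 0.19 at 30 days (adjusted p = 6.36e-05), and was 0.33 ± 0.20 higher at 60 days (adjusted p = 0.159). Sik1, a kinase of class II deacetylases, was higher at 10 days (1.40, adjusted p = 0.00289) and did not pass later. Hdac9 was lower at all 3 times (-1.15, -1.21 and -0.58). Mef2a, a partner of the myogenic factors, was 0.98 higher at 10 days and 0.62 lower at 60 days. Mef2c and Dach2 are not analysed here.

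Genes of the satellite cell surface and quiescence list went both ways. Of 22 tested, 7 were higher and 8 lower at 10 days, 7 and 5 at 30 days, and 9 and 2 at 60 days, with medians of -0.02, 0.18 and 0.27. With library totals the split was 12 and 1, 13 and 1, and 16 and 1, so its direction at 10 days depends on the scaling. Across all tested genes, TMM factors gave 33.3%, 33.7% and 29.9% called higher at 10, 30 and 60 days. The shares called lower were 29.4%, 30.9% and 29.1%. Beside these shares, the TMM counts of higher genes at 10 and 30 days do not set the list apart. Notch2, a receptor of satellite cell quiescence, was 1.81, 1.99 and 1.56 higher. Hes1, a Notch target, was 0.65, 0.77 and 1.23 higher. Notch1, Notch3, Heyl and Hey1, chosen after their values were seen, had lower means at 10 days after TMM scaling. Between 0 and 10 days Notch1 went from 29.2 to 17.1 CPM, Notch3 from 40.3 to 27.1, Heyl from 16.7 to 9.32 and Hey1 from 1.87 to 1.19. Since library totals left only 1 gene of the whole list called lower at 10 days, a joint fall of these genes depends on the scaling. Rbpj of the same list went from 39.1 to 54.6 CPM. Cxcr4 was higher at 10 days (1.24), and the heparan sulphate proteoglycan Sdc3 was lower at 10 and 30 days (-1.12 and -0.84).

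Among 16 tested growth signals to satellite cells 7 were higher and 4 lower at 10 days, 7 and 6 at 30 days, and 8 and 4 at 60 days. With library totals the split was 11 and 2, 9 and 3, and 9 and 4. Of all tested genes, with TMM factors, 33.3%, 33.7% and 29.9% were called higher and 29.4%, 30.9% and 29.1% lower at the 3 times. Fst, encoding the myostatin antagonist follistatin, rose by 5.46, 5.30 and 5.08, and Mstn, encoding myostatin, fell by 2.31, 2.91 and 3.48. Igf2 was 2.08, 2.93 and 1.43 higher. Wnt4 did not pass at 10 days, where library totals gave a called difference of 0.66 (adjusted p = 0.00120), and fell by 2.18 at 30 days and 2.85 at 60 days. Hgf, the factor that activates satellite cells, was called at 60 days (1.23, adjusted p = 0.0183). That call rests on few fragments, 2, 9, 6 and 7 in the libraries at 0 days and 20, 10, 7 and 14 at 60 days. Of 22 tested cell cycle genes 6 were higher and 2 lower at 10 days, 12 and 1 at 30 days, and 7 and 1 at 60 days. Beside the shares of all genes given above, the higher counts at 10 and 60 days do not set the cell cycle genes apart. With library totals the cell cycle counts were 18 and 2, 19 and 1, and 15 and 1. Mki67, the proliferation marker, was at 1.94 ± 0.155, 2.90 ± 1.08, 4.68 ± 0.194 and 3.20 ± 1.32 CPM, and passed at 30 days (1.27, adjusted p = 0.000749) and at 60 days (0.74, adjusted p = 0.0351). Cdk1 and the topoisomerase gene Top2a passed at 30 days alone among the 3 times (1.55, adjusted p = 0.00289, and 1.36, adjusted p = 0.00901), and the replication gene Mcm3 was 1.07, 1.43 and 0.96 higher. Cyclin D2 (Ccnd2) was lower at all 3 times (-1.43, -1.21 and -1.21).

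**Figure D4:**
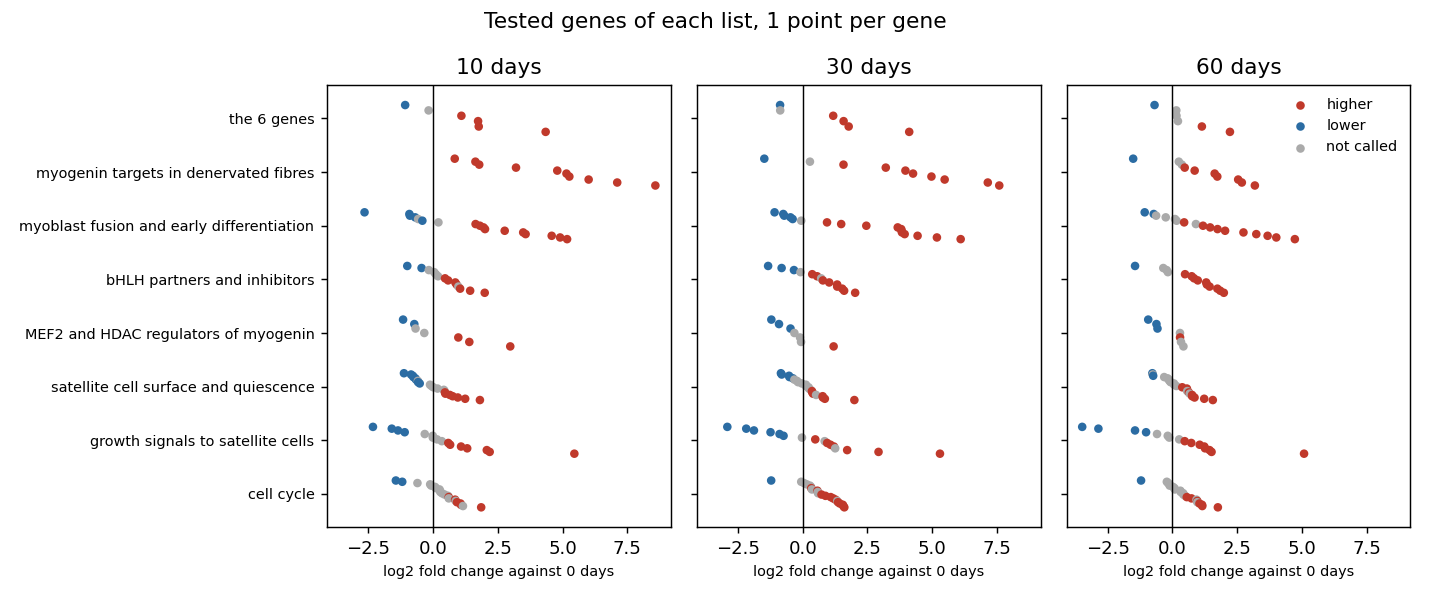
Log2 fold change against 0 days of the tested genes of each list at 10, 30 and 60 days, 1 point per gene, coloured by whether the gene was called higher, called lower or not called. The genes listed as myogenin targets lie above 0 at 10 days in 10 of 10 cases, and the satellite cell surface genes lie on both sides.

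Depth and makeup of the libraries moved with the groups. Totals ran from 17.2 to 39.9 M fragments, and every 60 day library (at most 22.4 M) was shallower than every other library (at least 22.9 M). The summed level of 10 muscle fibre markers was 220798 to 243700 CPM at 0 days, 62730 to 69351 at 10 days, 104922 to 148265 at 30 days and 131466 to 154639 at 60 days. At 10 days 9 of the 10 were lower, against 29.4% of all tested genes. The sum of 8 macrophage markers was 32.5 to 49.1 CPM at 0 days and 101 to 137, 126 to 166 and 110 to 203 afterwards. Higher were 6, 8 and 8 of the 8 genes, against 33.3%, 33.7% and 29.9% of all tested genes. The sum of the 6 fibro-adipogenic progenitor and fibroblast markers was 467 to 979 CPM at 0 days and 867 to 2480, 1428 to 2262 and 1336 to 2808 afterwards. The sum of 7 Schwann cell markers was 82.8 to 127, 44.7 to 75.7, 89.0 to 134 and 159 to 331 CPM. No gene of these 4 lists was at 0 in all libraries, and the part of these shifts in the values of the 6 genes was not tested. Moving from TMM factors to library totals shifted the median of all genes by 0.66 at 10 days, 0.49 at 30 days and 0.41 at 60 days (log2), and the 4 factors were higher at 10 and 30 days under both scalings.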

How the data were processed

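The values deposited by the authors are expected counts, raw fragments for 17147 genes in 16 libraries with no scaling for depth or length, per the file headers. Per the labels' protocols, a QIAGEN miRNeasy kit gave the RNA and a TruSeq mRNA kit the libraries. The submitters' processing notes name bcl2fastq 1.8.4, FastQC, TopHat2 2.0.9, Bowtie2 2.1.0.0, Cufflinks and Cuffdiff 2.1.1 and the build rn5, and give no role, order or strand setting, so reads of overlapping antisense genes cannot be told apart. All 6 genes have whole values, and 233 other genes have a fractional one.

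Values were rounded, genes filtered with filterByExpr by group (11658 kept), and TMM factors computed. A single edgeR 4.0.16 quasi-likelihood model (robust, no covariate, R 4.3.3) held all 16 libraries. Each of 6 pairs of groups was compared by F test, with Benjamini-Hochberg adjustment over all tested genes. CPM are TMM-scaled, a standard error is the log2 fold change divided by the square root of F, and ± on a mean is the SD. The depth floor, 3 fragments of the total, is 0.0712 to 0.175 CPM, and intervals and floors cover counting error only.

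On simulated counts for 10 against 0 days, 159 of 197 tested genes changed 2-fold were called, all in the right direction, and 2 unchanged genes were called. The simulation changed 200 genes in random directions, with 11523 tested, whereas 62.7% of genes were called in the data at 10 days. With so few genes changed, it does not test how the scaling behaves in these libraries. Alternatives were RLE factors, library totals, upper-quartile factors, no filter, the compared groups alone, a replicate block, the letter in the sample title as a covariate, DESeq2 1.42.0 and leaving out each library.

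The 6 genes and all lists were chosen with earlier results of these data known. From each list the text names the 4 called genes with the largest fold change against 0 days and a mean of at least 1 CPM, plus genes whose textbook role ties them to the 6. A gene that this rule names is not reported here. For likeness, the text names the 3 best-correlated genes. Sequences are from RefSeq (GRCr8); gene coordinates in rn5 are not used here, and 5 of the 6 genes had a promoter entry. Lists of endothelial, adipocyte, pericyte and tendon markers were also computed. Their summed levels at 0, 10, 30 and 60 days were 275 to 318, 157 to 228, 234 to 259 and 246 to 372 CPM for endothelial markers and 188 to 228, 70.4 to 133, 125 to 165 and 203 to 382 CPM for adipocyte markers. They were 264 to 336, 116 to 174, 174 to 198 and 198 to 360 CPM for pericyte and smooth muscle markers and 40.9 to 51.3, 100 to 121, 71.6 to 112 and 31.4 to 70.1 CPM for tendon markers.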

Additional observations from a re-analysis of the deposited data

Results flagged for a closer look

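Each of the 6 genes was screened in each group of 4 libraries for a library far from the other 3 (Dixon's test at its 95% critical value), and 1 of 24 groups had one, where chance gives about 1 in 20. It was Myod1 in replicate 1 at 30 days, at 272 CPM against 135 to 155 CPM in the other libraries of the group.

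Changes against 0 days differed between times by a test of the difference itself, the edgeR comparison of the 2 injured groups. Between 60 and 30 days the difference on the log2 scale was 1.08 for Pax7, -1.42 for Myod1, -1.89 for Myog and -1.03 for Myf6. Between 60 and 10 days it was -0.63 for Myf5, -1.58 for Myod1, -2.13 for Myog, -0.95 for Myf6 and 0.38 for Cdh15. The errors of these values, and the alternatives under which the Pax7, Myf5 and Cdh15 calls were lost, are given above.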

How the results depend on the processing

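Of 864 values of the 6 genes under alternatives, 808 kept their direction and side of the threshold. The count of called genes between 30 and 10 days was 1 with library totals and 0 to 1 with a library left out, and between 60 and 10 days it was 3 to 5 with a library left out; the other counts stayed within 1.5 times. Library totals reversed Pax7 at 10 days (0.49), Bhlhe40 (0.22) and Wnt4 (0.66) at 10 days, Sik1 (0.17), Mef2a (0.40), Tcf3 (0.15) and Tcf12 (0.41) at 30 days, Sdc3 (0.095), Id1 (0.19), Tcf3 (0.24) and Tcf12 (0.053) at 60 days, and Myf5 (-0.15) and Myf6 (-0.080) between 30 and 10 days. Upper-quartile factors reversed Wnt4 at 10 days (0.051), Mef2a (0.023) and Tcf12 (0.041) at 30 days. The title letter reversed Wnt4 at 10 days (0.013). No filter and the compared groups alone gave -0.0072 and -0.0043 for Myf5 between 30 and 10 days. With a library left out, the sign changed for Wnt4 at 10 days (-0.088 to 0.060), Mef2a at 30 days (-0.19 to 0.0043), Pax7 (-0.32 to 0.41), Myod1 (-0.18 to 0.31), Sik1 (-0.021 to 0.54) and Top2a (-0.15 to 0.64) at 60 days, Myf5 (-0.17 to 0.28) and Myf6 (-0.052 to 0.25) between 30 and 10 days, and Pax7 between 60 and 10 days (-0.15 to 0.58). The cause was not tested.

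The numbers in the column names did not pair the libraries: same-numbered libraries of different groups had correlations of their deviations from the group means from -0.24 to 0.22 (mean 0.0013), so the replicate block is an alternative only. With the replicate block the counts of called genes were 5, 5 and 3 at 10, 30 and 60 days, 0 between 30 and 10 days, 4 between 60 and 30 days and 5 between 60 and 10 days, with Pax7 lost (1.00, adjusted p = 0.0952) and Myf5 gained (-0.63, adjusted p = 0.0382) between 60 and 30 days. Depth limits Pax7, with 7 to 51 fragments per library.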

Other observations

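Several genes of the lists were too low to test. Fgf6, a muscle-specific growth factor, averaged 0.453 ± 0.135 CPM (SD, n = 4) in the controls and 0.031 ± 0.0238, 0.108 ± 0.0886 and 0.202 ± 0.0295 CPM after 10, 30 and 60 days. Lif was at 0.012 ± 0.0239 CPM at 0 days and 0.126 ± 0.053 at 30 days. Cd34 was listed at 0 in all 16 libraries, and whether its reads were missed in the counting was not tested, so the 0 does not show absence of the transcript.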
